A study of Homo sapiens with 8 samples.

Results

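Of the 58735 genes measured in U2OS cells, 317 are protein-coding and span over 500 kb from their first to their last annotated base, and 84 of these, taken as the expressed ones, are described here. Members were protein-coding genes of GENCODE release 29 with a span above 500 kb and a mean level of at least 1 FPKM over all 8 libraries, FPKM being the fragments of a gene scaled to its exon length and to the size of the library. The long genes left out were 232 with a mean under 1 FPKM, of which 9 had no read in any library, and 1 gene set aside by name, NRG1. No collagen gene, the other class to be set aside, passed the rule.

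U2OS is a human osteosarcoma line. RNA was sequenced from control cells named shControl, a genotype the labels give as WT, and from WSB2 knockdown (KD) cells carrying an shRNA against WSB2, a substrate receptor of a ubiquitin ligase. Each was either left unstimulated or given TNF-α for 5 h, an inflammatory cytokine upstream of NF-κB, which gave 4 groups of 2 libraries. The WSB2 hairpin was carried by the pLKO.1 vector in a stable line. For these libraries the study names a control shRNA, whose sequence is not given in the sources used here. For some other assays it describes the control line as stably carrying the vector without a hairpin. Which WSB2 hairpin and which TNF-α concentration were used for these libraries is not given in the sources used here. Nothing says that the 2 libraries of a group came from separate cultures, so the p-values measure only the spread between these libraries, which may be technical. WSB2 itself was at 27.7 and 28.0 FPKM in unstimulated control libraries, 8.38 and 8.52 in unstimulated KD libraries, 25 and 25.3 in control libraries with TNF-α and 9 and 9.18 in KD libraries with TNF-α. The mesenchymal markers VIM, SPARC and COL1A1 were at 146 FPKM or more in every library, whereas COL1A2, another gene of the bone matrix, was at most 0.0934. Markers of epithelial, blood and endothelial cells (EPCAM, PTPRC and PECAM1) were at most 0.482, 0.077 and 0.0373.

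The recovered reads numbered between 15601098 and 18677023 per library. The 2 unstimulated KD libraries stood apart from the other 6 in composition. Mitochondrial genes took 4.10% and 4.42% of their reads against 1.11% to 2.03% elsewhere, the mean exon GC content weighted by reads was 50.0% and 49.5% against 52.6% to 53.3%, and 26225 and 26397 genes had a read against 22072 to 22957. These libraries form a whole group, so their composition and the knockdown without TNF-α cannot be told apart, and every comparison that uses them carries this limit. The 2 unstimulated control libraries also differed from each other, with a variance between them 30.1 times the sampling noise of their reads against 2.45 to 7.23 times in the other groups.

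Genes of this size consist almost wholly of introns, and RNA polymerase II needs hours to cross one. Their output is known to depend on elongation factors, on topoisomerases that relieve the torsion ahead of the polymerase and on the suppression of early polyadenylation inside introns. Many of them encode adhesion receptors, synaptic proteins, cytoskeletal linkers and developmental transcription factors, and several lie at common fragile sites, regions that break when replication is slowed.

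The members spanned 504 to 2060 kb, with a median of 700.0 kb. The 5 longest were CSMD1 at 2060 kb, LRRC4C at 1350 kb, TBC1D5 at 1290 kb, KAZN at 1230 kb and RUNX1 at 1220 kb. Merged exons covered 2860 to 25500 bases (median 10000), which was 0.394% to 3.46% of the span with a median of 1.3%. In SUGCT, which encodes a mitochondrial CoA transferase, 2857 exon bases lay in 726 kb, the lowest share of the 84. The GC content of the exons ran from 37.1% in SEMA3A to 61.4% in SORCS2, with a median of 46.8%. Expressed protein-coding genes of 200 to 500 kb had a median of 45.1%, and those of up to 100 kb a median of 50.6%. The annotated span is that of the gene and not always of a transcript. In 76 members at least 1 annotated transcript itself spanned over 500 kb, and 8 members had none, among them SEMA3A (longest transcript 298.2 kb), HIVEP3 (412.3 kb), PDE10A (443.2 kb) and PSD3 (486.4 kb). Over all members, 221 of 1083 transcripts, or 20.4%, were longer than 500 kb. Exons shared with other genes were a limit for 5 members. Other genes covered 46.2% of the exon bases of IQCJ-SCHIP1, a readthrough of 2 neighbouring genes, 24.9% of KAZN, 17.6% of FRMD4A, 16% of SBF2 and 10.3% of LRBA, and the counting strand is not given in the sources used here.

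Coding sequence shows how far apart the exons of some members lie, and its base composition is given for members that moved in opposite directions. The first 120 coding bases are given below in 5′ to 3′ direction on GRCh38, from the longest complete coding transcript of GENCODE, for UTRN and ADGRL2, among the 3 largest rises in unstimulated KD cells, and for SUGCT and GALNT17, the 2 largest falls. VPS13B, whose rise was slightly larger than that of ADGRL2, was left out of this choice. G and C are in capitals.
UTRN: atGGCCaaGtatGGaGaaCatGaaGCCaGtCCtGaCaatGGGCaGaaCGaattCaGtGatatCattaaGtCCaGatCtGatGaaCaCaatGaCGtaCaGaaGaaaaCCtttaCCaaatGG
ADGRL2: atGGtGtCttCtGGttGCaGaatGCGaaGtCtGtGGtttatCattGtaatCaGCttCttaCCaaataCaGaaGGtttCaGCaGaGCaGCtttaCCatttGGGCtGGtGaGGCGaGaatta
SUGCT: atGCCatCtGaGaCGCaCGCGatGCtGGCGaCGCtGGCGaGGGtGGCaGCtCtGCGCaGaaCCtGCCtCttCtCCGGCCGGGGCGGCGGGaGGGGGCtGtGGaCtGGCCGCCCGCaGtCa
GALNT17: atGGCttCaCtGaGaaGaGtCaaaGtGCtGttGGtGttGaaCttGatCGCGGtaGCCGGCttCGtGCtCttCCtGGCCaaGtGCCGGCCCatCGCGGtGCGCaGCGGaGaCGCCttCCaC

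The 120 bases of UTRN, the gene of the dystrophin relative utrophin, lie at chr6:144291829-144403163 on the plus strand, in exons 1 and 2 that are parted by an intron, so that they extend over 111 kb. Those of ADGRL2, an adhesion G protein-coupled receptor, lie at chr1:81836985-81907063 on the plus strand in exons 5 and 6, over 70.1 kb. Those of SUGCT (chr7:40135000-40135119) and of GALNT17, an enzyme that begins O-linked glycosylation (chr7:71132803-71132922), lie in exon 1 on the plus strand. G or C made up 50 of the 120 bases in UTRN, 52 in ADGRL2, 86 in SUGCT and 72 in GALNT17. Over the whole coding sequence the GC content was 44.8% in UTRN, 43.3% in ADGRL2, 48.0% in SUGCT and 55.7% in GALNT17. Over the merged exons the GC content was 43.0% in UTRN, 40.4% in ADGRL2, 45.4% in SUGCT and 58.4% in GALNT17. SUGCT had a GC-rich start in a gene whose exons were below the members' median.

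The mean FPKM was used to choose the members, so their level is a description. It ran from 1.05 in ZFPM2, a cofactor of GATA factors, to 30.6 in TENM2, a teneurin adhesion receptor, with a median of 2.91. Just inside the threshold stood ZFPM2 (1.05), FBXL17 (1.07) and TTC28 (1.07), and just outside stood SYNE1 (0.986), EGLN3 (0.982) and NRG3 (0.975). By span, CPQ (504 kb), ERC1 (505 kb) and GSE1 (507 kb) were just inside, and DIAPH3 (498 kb), CACNA2D1 (497 kb) and RPS6KA2 (497 kb) just outside. The threshold leaned on the unstimulated KD libraries. All 84 members had at least 1 FPKM in each of these, against 67 and 78 members in the unstimulated control libraries, 80 and 81 in the control libraries with TNF-α and 80 in each KD library with TNF-α. Without the unstimulated KD libraries 5 members would have had a mean under 1 FPKM. A further 18 long genes reached a mean of 1 FPKM in the unstimulated KD libraries but not over all 8, and SYNE1, for example, had 1.81 and 2.10 FPKM there against 0.401 to 0.799 in the other 6 libraries.

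Together the members took 0.256% and 0.367% of the reads in unstimulated control libraries and 0.504% and 0.556% in unstimulated KD libraries. With TNF-α control libraries had shares of 0.336% and 0.324%, and KD libraries of 0.331% and 0.327%. The unstimulated KD libraries were the highest of the 8 and did not overlap with any other group, and unstimulated control replicate 1 was the lowest. The median member was at 2.34 and 2.69 FPKM in unstimulated control libraries, 3.26 and 3.55 in unstimulated KD libraries, 2.90 and 2.94 in control libraries with TNF-α and 3.26 and 3.05 in KD libraries with TNF-α. In bulk RNA, fewer cells that express a gene and less RNA per cell cannot be told apart.

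**Figure D1:**
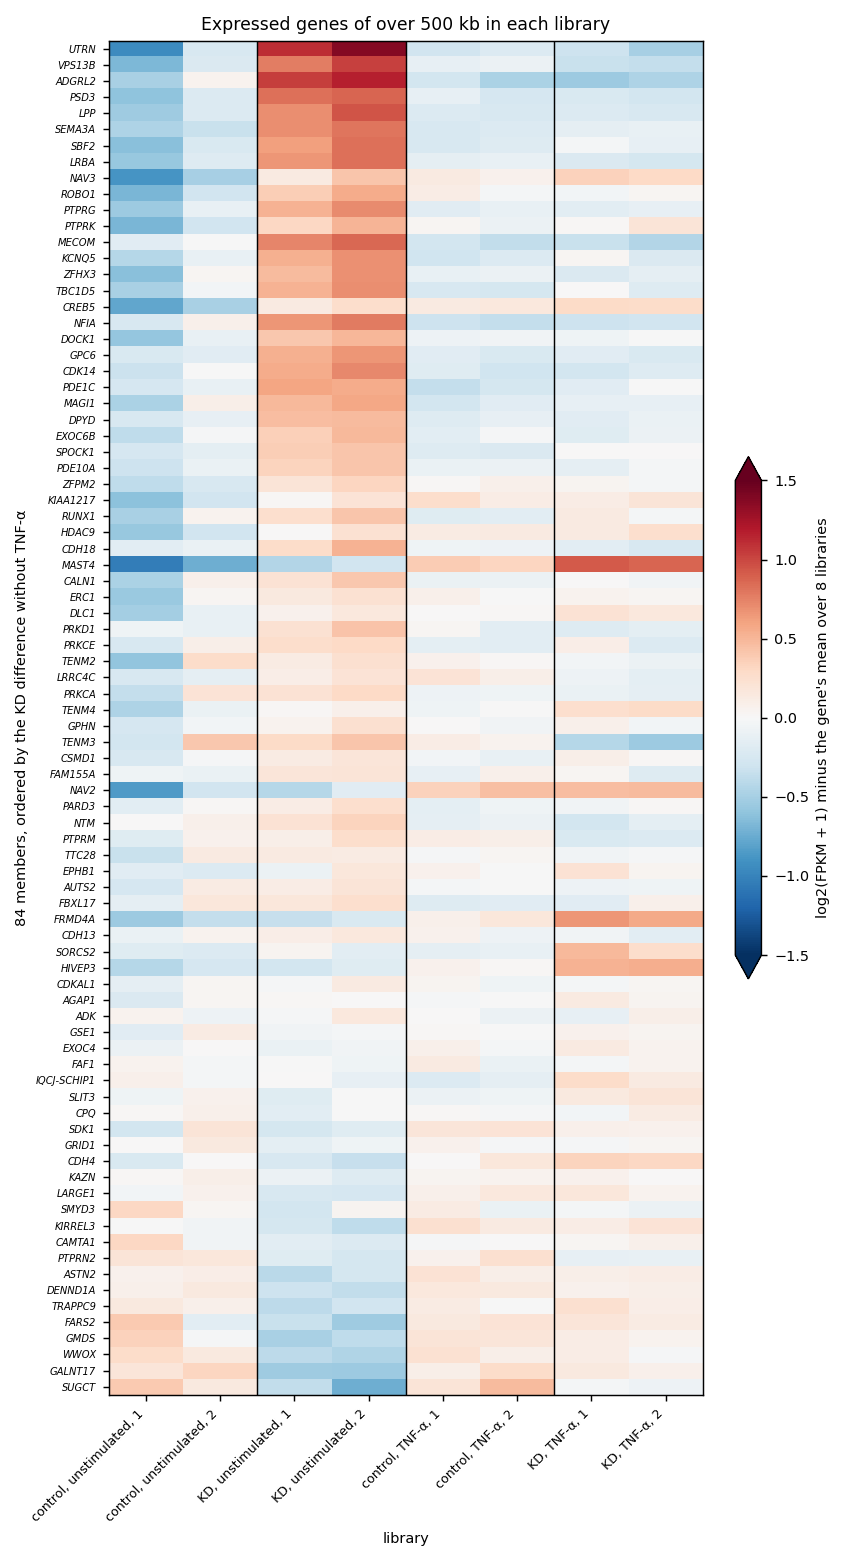
Level of each of the 84 members (rows) in each of the 8 libraries (columns), as log2(FPKM + 1) minus the gene's own mean over the 8 libraries, with members ordered by the difference between KD and control cells without TNF-α. The 2 unstimulated KD columns are red in the upper rows (UTRN at the top) and blue in the lowest rows (SUGCT at the bottom), and the KD and control columns with TNF-α are much paler except in a few rows such as MAST4, FRMD4A and TENM3.

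In unstimulated cells the knockdown moved members in both directions. UTRN was at 1.06 and 2.37 FPKM in control libraries and at 7.54 and 9.31 in KD libraries, 4.92 times the control mean. VPS13B, whose product carries lipids between membranes, was at 0.698 and 1.34 in control and 3.61 and 4.51 in KD libraries, 3.99 times the mean. In both genes each KD library was above each control library, and the control libraries differed more from each other than the KD libraries did in relative terms. A limma fit of log2(FPKM + 1) covered all 16528 genes with enough reads, and a call required a p under 0.05 after Benjamini-Hochberg adjustment. All 84 members were among the genes tested. By this test 39 members (46.4%) rose and 10 (11.9%) fell in unstimulated KD cells, and 35 were not called. Over all genes tested, 29.8% rose and 30.2% fell. Called in either direction were 58.3% of the members and 60.1% of all genes, so the share called was near the background while rises made up more of it. The libraries of the groups did not overlap, with KD above control, for 51 members, and with KD below control for 16, where 40.1% and 39.7% of all genes tested did so. The median member changed by 0.31 on the log2 scale and the median of all genes tested by -0.00.

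The split between rises and falls moved with the scaling of the libraries. Scaled to total reads, which shifted the median of all genes tested by 0.13, 54 members rose and 4 fell. With upper-quartile factors, which shifted that median by -0.12, 32 rose and 18 fell. Rises outnumbered falls among the members in each of the 3 scalings. The shares of all genes called are given here only for the deposited scaling, so the other counts stand without a background. Chosen by the mean of the 6 libraries outside the unstimulated KD group, 79 members remained, of which 35 rose and 10 fell.

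The largest rises came from several functional groups, and the counts by group below stand against the 46.4% of all members that rose and the 11.9% that fell, in groups too small to be read as results about a function. On the log2(FPKM + 1) scale, which understates the change of low genes, UTRN rose by 1.83 (SE 0.223, adjusted p = 0.00038), VPS13B by 1.34, ADGRL2 by 1.32, PSD3 by 1.26 and LPP by 1.19. SEMA3A rose by 1.15, SBF2 by 1.14, LRBA by 1.13, NAV3 by 0.97 and ROBO1 by 0.95, the adjusted p of the 10 lying between 0.000155 and 0.00119. The libraries of the groups did not overlap for any of these. ADGRL2, the most abundant of the 10, was at 4.34 and 6.77 FPKM in control and 14.3 and 15.8 in KD libraries. SEMA3A, a secreted repellent of growing axons, was at 0.719 and 0.875 in control and 2.83 and 3.15 in KD libraries.

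Among cytoskeletal members, 2 of 3 rose, UTRN and NAV3, a protein that binds growing microtubule ends, while NAV2 was at 1.69 and 2.95 FPKM in control and 2.59 and 3.29 in KD libraries and was not called. Of 7 regulators of small GTPases 5 rose, namely PSD3, SBF2, TBC1D5, DOCK1 and DLC1, and DENND1A, an exchange factor for Rab35, fell. PSD3, an exchange factor for Arf6, was at 0.588 and 1.09 FPKM in control and at 3.28 and 3.43 in KD libraries. Of 12 members acting in transcription or on chromatin 7 rose and none fell: MECOM, ZFHX3, CREB5, NFIA, ZFPM2, RUNX1 and HDAC9. ZFPM2 is among the 5 members with a mean under 1 FPKM without the unstimulated KD libraries. Its rise is therefore not independent of the rule that chose it, and these 5 were kept in the counts by group. MECOM, a zinc finger oncogene of leukaemia, was at 0.777 and 0.984 FPKM in control and 2.31 and 2.64 in KD libraries.

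Of 8 signalling enzymes 5 rose, with the cyclin-dependent kinase CDK14 at 9.68 and 12.3 FPKM in control and 18.5 and 20.9 in KD libraries. The other 4 were the phosphodiesterases PDE1C and PDE10A and the kinases MAST4 and PRKD1. Of 5 polarity and junction proteins 3 rose (LPP, MAGI1 and PARD3), and of 5 receptor phosphatases and receptor kinases PTPRG and PTPRK rose and PTPRN2 fell. Both heparan sulfate proteoglycans, GPC6 and SPOCK1, rose. GPC6, a glypican, was at 5.24 and 5.53 FPKM in control and at 9.62 and 10.6 in KD libraries. Of 3 channel members the potassium channel KCNQ5 rose.

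The 16 adhesion and guidance members were divided. ADGRL2, SEMA3A, ROBO1, CDH18 and LRRC4C rose, KIRREL3 and ASTN2 fell and 9 were not called. The most abundant members were in the last class. TENM2 was at 19.7 and 36.8 FPKM in control and 32.9 and 35.9 in KD libraries, and TENM3 at 16.6 and 27.2 in control and 25.1 and 27.5 in KD libraries, so for both the control libraries spanned or nearly spanned the KD values.

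The list named membrane traffic, which also holds the glycosylation enzyme GALNT17, was divided as well. VPS13B, LRBA, EXOC6B and ERC1 rose, TRAPPC9 and GALNT17 fell and 4 of the 10 were not called. Among 7 metabolic and mitochondrial members DPYD, the enzyme that breaks down pyrimidines, rose and SUGCT, GMDS and FARS2 fell. Of the 2 members on the list named genome maintenance and cell cycle, WWOX fell and CDKAL1 was not called. CDKAL1 was at 4.51 and 5.18 FPKM in control and 4.98 and 5.64 in KD libraries. The group names are labels of lists and need not describe each member, CDKAL1 included. Of 4 members placed in no group, KIAA1217 and CALN1 rose.

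The falls were smaller than the rises. SUGCT was at 9.92 and 8.23 FPKM in control and 5.42 and 4.01 in KD libraries and fell by 0.82 on the log2 scale (SE 0.154, adjusted p = 0.00241). GALNT17 was at 5.00 and 5.63 FPKM in control and 2.67 and 2.64 in KD libraries and fell by 0.79 (SE 0.108, adjusted p = 0.000596). WWOX, an oxidoreductase and tumour suppressor, was at 2.99 and 2.65 in control and 1.51 and 1.40 in KD libraries and fell by 0.64. The control mean of these 3 was 1.93, 2.0 and 1.94 times the KD mean, and no KD library reached the lower control library. GMDS, an enzyme of GDP-fucose synthesis, fell by 0.60 and FARS2, the mitochondrial phenylalanyl-tRNA synthetase, by 0.55. TRAPPC9 fell by 0.46, DENND1A by 0.45, ASTN2 by 0.42, PTPRN2 by 0.40 and KIRREL3 by 0.29, the last with an adjusted p of 0.0438. The call of KIRREL3 was lost or reversed under 13 of 18 alternatives and that of FARS2 under 7, while SUGCT, GALNT17, WWOX and GMDS were called lower under all 18.

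**Figure D2:**
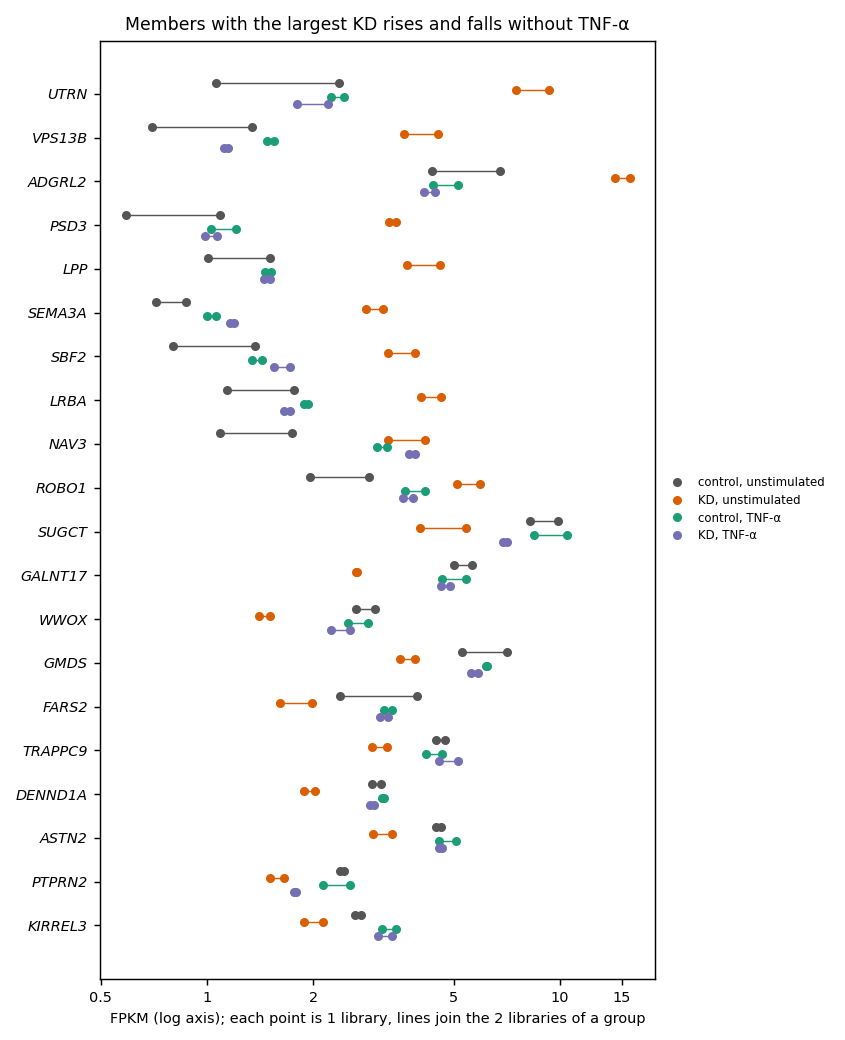
FPKM (log axis) in each library for the 10 members with the largest rises (UTRN to ROBO1) and the 10 with the largest falls (SUGCT to KIRREL3) in unstimulated KD cells, with 1 point per library, lines joining the 2 libraries of a group and colours marking the 4 groups. The unstimulated KD points lie to the right of the other groups for the first 8 genes and to the left for the falling genes, whereas for NAV3 they lie among the points of cells with TNF-α.

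Direction differed by base composition among the members. Of the 16 members with an exon GC content of up to 42%, 12 rose and none fell. Of the 21 with 42% to 46%, 16 rose and 1 fell (SUGCT), and of the 25 with 46% to 50%, 11 rose and 2 fell. Above that no member rose: 4 of 12 fell at 50% to 54% and 3 of 10 above 54%. The shares in shorter genes of the same GC content are given beside these. At up to 42% GC 75% of the members rose, against 91.1% of genes of 200 to 500 kb and 91.5% of those of 100 to 200 kb. At 42% to 46% the shares were 76.2%, 64.4% and 64.3%. At 46% to 50% they were 44%, 38% and 25.4%, with falls of 8%, 9.09% and 16.7%. At 50% to 54% none of the members rose, against 12.1% and 4.48%, and the shares that fell were 33.3%, 27.3% and 34.3%. Above 54% the shares that fell were 30%, 51.7% and 62.4%. Across the 84 members, which share the same libraries and are not replicates, Spearman's rho between GC content and the log2 fold change was -0.653. It was -0.783 across 10284 expressed protein-coding genes, most of which are far shorter. Exon length gave a rho of 0.432 across the members. Span itself gave -0.059 among the members and 0.001 among the 1759 genes of 100 to 500 kb, although it gave 0.504 over all expressed protein-coding genes.

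**Figure D3:**
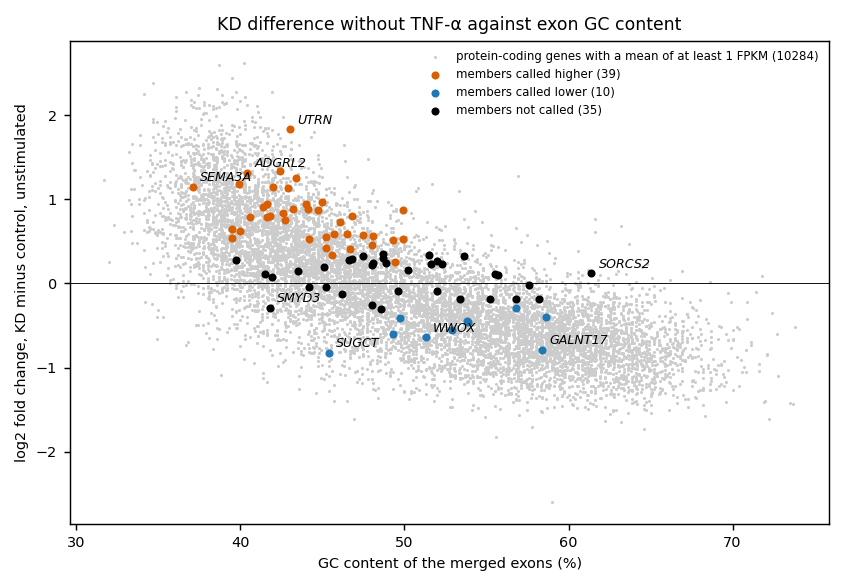
Log2 fold change between unstimulated KD and control cells (vertical axis) against the GC content of the merged exons in percent (horizontal axis), with 10284 expressed protein-coding genes in grey and the 84 members in orange (39 called higher), blue (10 called lower) and black (35 not called). The members run down with the grey cloud from upper left to lower right, UTRN near its upper edge and SUGCT near its lower edge at a similar GC content.

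Span and GC content were separated by classes. Without any correction, the median log2 fold change was higher in each class of span up to 100 to 200 kb and level from there on: -0.67 for genes of up to 10 kb, -0.35 for 10 to 30 kb, 0.08 for 30 to 100 kb, 0.35 for 100 to 200 kb, 0.34 for 200 to 500 kb and 0.31 for the members. After each library was corrected by a smooth trend on GC content, the members' median was 0.34 against 0.20 for 200 to 500 kb and 0.21 for 100 to 200 kb. With exon length added to the correction, it was 0.21 against 0.11 and 0.14. The quartiles of the 3 classes overlapped in every case, from -0.08 to 0.40 for the members and from -0.15 to 0.38 for 200 to 500 kb in the last one. Within the class of 46% to 50% GC, the median was -0.34 for genes of up to 10 kb, -0.18 for 10 to 30 kb, -0.05 for 30 to 100 kb, 0.14 for 100 to 200 kb, 0.19 for 200 to 500 kb and 0.30 for the 25 members. Within the class of up to 42% it was 0.84 for 200 to 500 kb and 0.80 for the 16 members, so the members were not the highest class there. After the GC correction 42 members were called higher and 9 lower, and after the correction for GC content and exon length 35 and 14. The shares of all genes called after these corrections are not given here. Above 0, called or not, were 77.4% of the members and 68.2% of genes of 200 to 500 kb after the first. After the second these shares were 71.4% and 60.4%. PTPRN2 and KIRREL3, both GC-rich, then changed sign, with values of 0.07 and 0.12 after the GC correction.

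**Figure D4:**
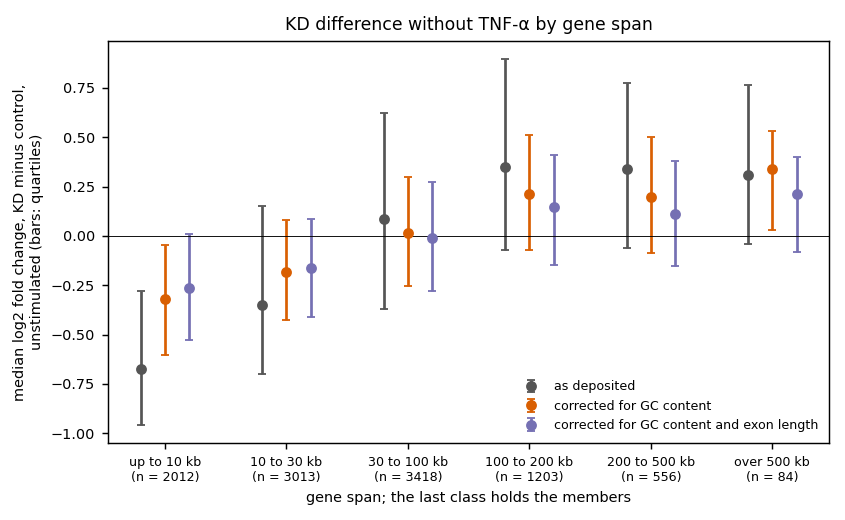
Median log2 fold change between unstimulated KD and control cells (points; bars reach from the lower to the upper quartile) for expressed protein-coding genes in 6 classes of span, as deposited (grey), corrected for GC content (orange) and corrected for GC content and exon length (purple). The grey medians climb from -0.67 to 0.35 and level off from 100 kb on, and the corrected medians climb less, with the members at 0.34 and 0.21.

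TNF-α in control cells moved few members. MAST4, which encodes a microtubule-associated kinase, was at 0.5 and 0.85 FPKM without and at 3 and 2.84 with TNF-α, 4.32 times the mean. NAV2, a relative of NAV3 that acts in neurite outgrowth, was at 1.69 and 2.95 without and 5.14 and 5.60 with TNF-α. CREB5, a transcription factor of the ATF family, was at 1.72 and 2.31 without and 4.09 and 4.20 with TNF-α. In each of the 3 genes both libraries with TNF-α were above both libraries without it. The test called 6 members higher (7.14%) and 0 lower, where 3.1% of all genes tested rose, 1.14% fell and 4.24% did either. Libraries with TNF-α lay above those without it, with no overlap, for 26 members and below for 7, against 22.6% and 19.9% of all genes tested. At an unadjusted p under 0.05, 12 members were higher and 0 lower, where 2899 of all genes tested (17.5%) passed in either direction. A voom fit of the recovered reads called 9 members higher and 0 lower. Rises were 2 when scaled to total reads, 2 with no filter on low reads and 1 in a fit of only the libraries compared.

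MAST4 rose by 1.23 on the log2 scale (SE 0.129, adjusted p = 0.00182), NAV2 by 0.97 (SE 0.182, adjusted p = 0.0295), NAV3 by 0.79 (SE 0.155, adjusted p = 0.0338) and CREB5 by 0.78 (SE 0.121, adjusted p = 0.0132). KIAA1217 rose by 0.63 (adjusted p = 0.0446) and FRMD4A, a polarity scaffold that is the sixth and lies outside the naming rule, by 0.57 (adjusted p = 0.0338). The count rested on single libraries. It was 3 without unstimulated control replicate 1, 21 without unstimulated control replicate 2, and 1 or 2 without any one of the other 6 libraries. MAST4 was called under all 19 alternatives, whereas the calls of NAV2, NAV3 and KIAA1217 were lost under 10, 11 and 12 of them. Of the 6, NAV3, CREB5, KIAA1217 and MAST4 were also called higher in unstimulated KD cells, in a comparison that shares the unstimulated control libraries. MAST4 was at 1.27 and 1.53 FPKM there and CREB5 at 4.12 and 4.59.

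**Figure D5:**
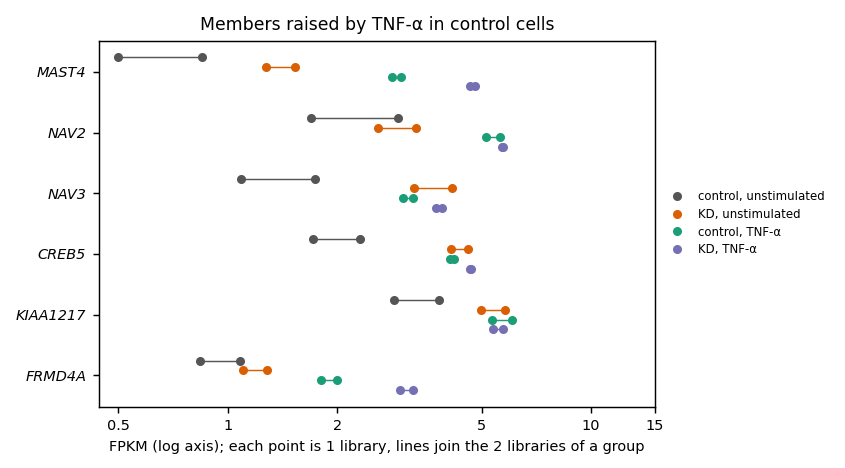
FPKM (log axis) in each library for the 6 members raised by TNF-α in control cells, with 1 point per library, lines joining the 2 libraries of a group and colours marking the 4 groups. The unstimulated control points lie farthest left in every row but that of NAV2, where they overlap the unstimulated KD points, and in KD cells with TNF-α MAST4 (4.80 and 4.63 FPKM) and FRMD4A (3.24 and 2.97 FPKM) lie to the right of all other groups.

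The bases ahead of the start of these genes were searched for sites of factors that TNF-α is known to activate, a choice made after the values were seen. RefSeq promoter sequences of GRCh38.p14 were matched by symbol for 65 of the 84 members, including all 6. In the 250 bases before the RefSeq start, one form of the NF-κB site (GGG, any 3 bases, TTCC) was found on neither strand in any of the 65, against 6.82% of 8212 expressed protein-coding genes and 5.61% of all 27305 promoters. TGANTCA, a loose form of the AP-1 site with any base in the middle, was found in 1 of the 65, against 3.81% and 6.6%. This match, in HDAC9, read TGATTCA and overlapped no other motif. Neither motif was in the windows of the 6. Such matches are letters in a short window, and for some members the RefSeq start lies far inside the GENCODE span, by 113197 bases in CREB5 and 506253 in NAV3. The windows of MAST4 and CREB5 are printed with CG pairs in capitals because the 6 genes differed widely in this respect.
MAST4: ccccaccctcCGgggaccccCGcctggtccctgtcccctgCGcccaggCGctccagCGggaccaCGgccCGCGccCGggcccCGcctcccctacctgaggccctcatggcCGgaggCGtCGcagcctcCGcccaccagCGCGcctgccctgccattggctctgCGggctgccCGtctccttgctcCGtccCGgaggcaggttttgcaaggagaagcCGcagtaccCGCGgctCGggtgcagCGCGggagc
CREB5: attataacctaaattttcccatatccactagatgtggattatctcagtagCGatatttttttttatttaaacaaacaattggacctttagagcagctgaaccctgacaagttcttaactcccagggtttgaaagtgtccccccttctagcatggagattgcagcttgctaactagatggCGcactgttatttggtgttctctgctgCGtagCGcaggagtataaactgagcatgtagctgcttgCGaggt

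The window of MAST4, at chr5:66596143-66596392 on the plus strand, held 26 CG pairs and was 76.4% GC. That of CREB5, at chr7:28412268-28412517 on the plus strand, held 5 and was 42% GC. NAV3 had 2 CG pairs and KIAA1217 29. Over the 65 members the median was 21 CG pairs and 66.4% GC, close to the 22 pairs and 65.6% of the 8212 expressed genes, and over the 6 it was 10.5 pairs and 54.4%.

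In KD cells TNF-α was followed by many changes. UTRN went from 7.54 and 9.31 FPKM to 2.20 and 1.80, ADGRL2 from 14.3 and 15.8 to 4.11 and 4.44, and MECOM from 2.31 and 2.64 to 0.585 and 0.473. Both libraries with TNF-α were below both without it in each of the 3. The test called 16 members higher and 30 lower with TNF-α, against 31.1% and 31.4% of all genes tested and 62.5% in either direction. The groups did not overlap, with TNF-α above, for 29 members, and with TNF-α below for 45, against 41.3% and 43.5%. The median member changed by -0.18 and the median gene by -0.01. Scaled to total reads, 4 were higher and 47 lower, and with upper-quartile factors 23 and 25, without shares of all genes beside them. UTRN fell by 1.65 on the log2 scale, ADGRL2 by 1.60, VPS13B by 1.24, MECOM by 1.18 and PSD3 by 1.10, the highest adjusted p among them being 0.000453.

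MAST4 rose by 1.25 (adjusted p = 0.000146), FRMD4A by 0.91, NAV2 by 0.77, HIVEP3 by 0.76 and GALNT17 by 0.65. MAST4 went from 1.27 and 1.53 FPKM to 4.80 and 4.63, and HIVEP3, a zinc finger protein that binds κB-like sites, from 2.06 and 2.27 to 4.32 and 4.40. GALNT17 went from 2.67 and 2.64 to 4.90 and 4.60, close to its 5.00 and 5.63 in unstimulated control libraries, and after the GC correction its change was 0.13 with an adjusted p of 0.323. Of the members with up to 42% GC 10 fell (62.5%) and none rose. At the same GC content 84.9% of genes of 200 to 500 kb fell, and 88.8% of those of 100 to 200 kb. Of the members above 54% GC 5 rose (50%) and none fell, against rises of 66.7% and 65.3% in these classes of span. This comparison uses the same unstimulated KD libraries as the knockdown without TNF-α, so the values of one are not independent of the other. Without KD replicate 1 with TNF-α the count of rises was 10.

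Between KD and control cells with TNF-α, limma called 0 of the 84 members in either direction, as did voom. Both fits share the spread of a gene over all 4 groups. The variance between replicates was 30.1 times the sampling noise in unstimulated control libraries, against 4.31 and 2.45 times in the groups compared here. The absence of calls therefore does not show that the members were equal. Of all genes tested 10 rose and 9 fell, which is 0.0605% and 0.0545%, or 0.115% in all. Without overlap, 25 members lay above control and 17 below, against 23.9% and 22.3% of all genes tested. At an unadjusted p under 0.05 there were 11 members, 6 higher and 5 lower, and 1348 of all genes (8.16%). The median member changed by 0.01, with quartiles of -0.06 and 0.11, and the members ran from -0.57 to 0.54. The lowest adjusted p was 0.207, for HIVEP3, at 2.89 and 2.76 FPKM in control and 4.32 and 4.40 in KD libraries. FRMD4A was at 1.81 and 2.00 in control and 3.24 and 2.97 in KD libraries, and MAST4 at 3 and 2.84 against 4.80 and 4.63. SORCS2, a sorting receptor, was at 1.81 and 1.86 against 3.30 and 2.71. For these 4 the KD libraries were above the control libraries, with log2 differences of 0.49, 0.50, 0.54 and 0.50, although none passed the threshold. TENM3 had the lowest value, -0.57 with an adjusted p of 0.461, at 22.0 and 21.1 FPKM in control and 14.9 and 13.6 in KD libraries. It was called lower when either unstimulated control library was left out. UTRN, the member with the largest rise without TNF-α, was at 2.24 and 2.44 in control and 2.20 and 1.80 in KD libraries.

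The interaction asks whether the knockdown difference itself changed with TNF-α. The test of this difference called 5 members higher and 32 lower, against 23.8% and 22.3% of all genes tested and 46.1% in either direction, with a median of -0.30 for the members and 0.01 for all genes. Scaled to total reads the counts were 1 and 39, and with upper-quartile factors 14 and 22, without shares of all genes beside them. UTRN had the lowest value, -1.99 (SE 0.315, adjusted p = 0.00276), since its difference of 1.83 without TNF-α became -0.16 with it. VPS13B was at -1.58, ADGRL2 at -1.44, PSD3 at -1.32 and LRBA at -1.25. On the other side were GALNT17 at 0.72, TRAPPC9 at 0.57, WWOX at 0.52, IQCJ-SCHIP1 at 0.46 and CDH4 at 0.42, the last with an adjusted p of 0.05 after rounding. The 5 calls higher were less steady, since those of IQCJ-SCHIP1, CDH4 and WWOX were lost or reversed under 11, 13 and 9 of 17 alternatives. The 32 calls lower became 18 without unstimulated KD replicate 2, 20 without control replicate 1 with TNF-α and 21 without either KD library with TNF-α, and 20 after the GC correction. All of these values contain the unstimulated KD libraries.

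Genes of common fragile sites were looked at as a list of 19, of which 14 were tested and 4 were members. LPP, a focal adhesion protein, was at 1.01 and 1.51 FPKM in unstimulated control and 3.70 and 4.57 in unstimulated KD libraries and rose, and WWOX fell, as given above. AUTS2, a chromatin regulator of neurons, was at 1.64 and 2.41 against 2.40 and 2.60 and was not called. EXOC4, a subunit of the exocyst, was at 4.47 and 4.85 against 4.41 and 4.61 and was not called. Over the 14 genes 5 rose and 2 fell in unstimulated KD cells, with a median of 0.12, where 29.8% of all genes tested rose and 30.2% fell. With TNF-α in KD cells 1 rose and 5 fell (31.1% and 31.4% of all genes), the interaction called 1 higher and 3 lower (23.8% and 22.3%), and none was called in control cells with TNF-α or between KD and control cells with TNF-α.

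The machinery that carries polymerase through long genes was covered by a list of 47 genes for elongation, topoisomerases and 3′ end processing, 46 of them tested and none a member. In unstimulated KD cells 23 rose and 19 fell, with a median of 0.25, against 29.8% and 30.2% of all genes tested. With TNF-α in KD cells 20 rose and 18 fell, against 31.1% and 31.4%, and the interaction called 18 higher and 18 lower, against 23.8% and 22.3%. TOP1, TOP2A and TOP2B, the topoisomerases, rose by 0.95, 2.16 and 1.79, and SETD2 and CCNT2 by 1.58 and 1.64. NELFB and NELFE, subunits of the pausing complex NELF, fell by 1.11 and 1.08. The exon GC content of TOP2A and TOP2B was 38.9% and 39.1% and that of NELFB 64.4%. With TNF-α in control cells 1 of the 46 rose, the elongation factor ELL2, by 0.74, and between KD and control cells with TNF-α none was called.

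Non-coding genes nested inside the members were used to ask whether reads from the long introns rose as a whole. On the same strand as 63 members lay 157 such genes that overlap no exon of a protein-coding gene. Per 1000000 of the effective library size behind the deposited values, they had 16.2 and 13.1 reads in unstimulated control and 12 and 14.4 in unstimulated KD libraries. Per 1000000 total reads these were 15.6 and 13.4 against 14.4 and 17.4, and the groups overlapped on both scales. On the opposite strand of 76 members lay 251 genes with 16.2 and 12.2 reads in control and 12.4 and 12.8 in KD libraries on the first scale, and 15.6 and 12.6 against 15 and 15.5 on the second, which overlap as well. The number of nested genes with at least 1 read did differ. On the same strand it was 18 and 19 in unstimulated control, 33 and 40 in unstimulated KD and 15 to 20 in the other libraries, and on the opposite strand 21 and 30, 59 and 67, and 24 to 34. Genes nested in expressed protein-coding genes of 100 to 500 kb went the same way. On the same strand 156 and 205 had a read in unstimulated control and 364 and 368 in unstimulated KD libraries. On the opposite strand these numbers were 204 and 260 against 449 and 480. Their summed reads per effective library size in KD over control libraries were 0.735 and 0.951 times on the 2 strands. No genes were left out of these sums, so they cannot be set against the members' values without 3 genes given below. The sums in the members rested on few genes. RPL22P1, a pseudogene in MECOM on its strand, held 32.0% of the reads of all nested genes, and AC009549.1 in NAV2 and RPL10AP6 in PTPRG, both on the opposite strand, held 10.5% and 10.4%. RPL22P1 had 149 and 122 reads in unstimulated control and 83 and 104 in unstimulated KD libraries, and RPL10AP6 98 and 78 against 43 and 31. Without these 3, a choice made after the values were seen, the same-strand genes had 6.27 and 6.01 reads in control and 7.77 and 8.96 in KD libraries on the first scale, 1.36 times the control mean. The opposite-strand genes had 8.14 and 6.47 against 9.54 and 9.84, 1.33 times. The KD libraries were then above the control libraries on both strands and on both scales, with folds of 1.66 and 1.62 per total reads, so whether the summed reads differed depended on these 3 genes. More genes of the whole table also had a read in the unstimulated KD libraries, and the part of this in the nested genes was not tested.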

How the data were processed

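RNA from 8 libraries of U2OS cells was sequenced, and the deposited values were FPKM per gene. Per the submitters' processing notes the authors used CASAVA 1.8, fastp, HISAT2 2.0.5, featureCounts 1.5.0-p3 and DESeq2 1.20.0 with the human genome GRCh38. All 58735 genes matched GENCODE release 29 in position and exon length. The counting strand, and how multi-mapped reads were treated, are not given in the sources used here. Whole reads were recovered from the FPKM for 100.0% of values (tolerance 0.05), and the library size behind the deposited values was a median-of-ratios size factor.

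The test took genes that would have 10 reads or more in 2 libraries scaled to median depth, and 15 in all (16528). limma 3.58.1 in R 4.3.3, with a mean-variance trend, was fitted to log2(FPKM + 1) with 4 group means over all 8 libraries (4 residual degrees of freedom), and p-values were adjusted by Benjamini-Hochberg within each of 5 contrasts. GC content and exon length were corrected per library by splines with 5 degrees of freedom. Tables and plots were made with Python 3.11.15, pandas 2.3.3, numpy 2.4.6 and matplotlib 3.10.9. The scripts were tested on simulated data.

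The members and gene lists were chosen with earlier results of these data known. Functional groups of 20 members, the motifs and the printed sequences were chosen after the values were seen. Genes were named by rule: the 10 largest rises and 10 largest falls without TNF-α, 5 and 5 in the other comparisons, among called members whose libraries did not overlap (for the interaction, called members), the longest members, those next to a threshold and the fragile site genes. Of the elongation list, at most 5 called genes a direction were named. Other genes are examples of their group, chosen after their values were seen. Alternatives covered the pseudocount, scaling, filters, voom, composition, replicate block, membership and leaving out each library.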

Additional observations from a re-analysis of the deposited data

Results flagged for a closer look

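The difference between KD and control cells itself differed with TNF-α, by the interaction term of the limma fit, for 5 members in the positive and 32 in the negative direction. Of all genes tested 23.8% and 22.3% were called in these directions. In either direction this was 46.1% of all genes against 44.0% of the members, so the share called was near the background. The interaction (log2 scale) was -1.99 for UTRN, -1.58 for VPS13B, -1.44 for ADGRL2, -1.32 for PSD3 and -1.25 for LRBA. It was 0.72 for GALNT17, 0.57 for TRAPPC9, 0.52 for WWOX, 0.46 for IQCJ-SCHIP1 and 0.42 for CDH4. These values contain the unstimulated KD libraries, whose mitochondrial share and read-weighted GC content stood apart from the other 6 libraries, and the part of that composition in the interaction cannot be told apart from the knockdown.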

How the results depend on the processing

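Over the alternatives, single named members kept direction and call in 695 cases, lost the call in 105 and changed sign in 5. The sign changes were PTPRN2 at 0.0702 with the GC correction and 0.0663 with GC content and exon length, KIRREL3 at 0.12 and 0.0343, and CDH4 in the interaction at -0.0392 with the GC correction. For the results below that moved, the cause was not tested, except that other thresholds change the number of members. The share of all genes called under each alternative is not given here, so the counts of members called under alternatives stand without a background.

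For the knockdown without TNF-α, the median log2 change of members was 0.41 with a pseudocount of 0.1, 0.55 scaled to total reads (4 lower), 0.12 with upper-quartile factors (18 lower), 0.44 with voom and 0.21 with the GC and exon length correction. With a span above 400000 bases 71 rose and 17 fell, above 1000000 bases 8 and 2 (median 0.43), and at 5 FPKM or more 8 and 2. With TNF-α, the median was -0.0503 above 1000000 bases.

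For TNF-α in control cells, rises were 2 scaled to total reads, 2 with no filter on low reads, 1 with only the libraries compared, and 0 both above 1000000 bases and at 5 FPKM or more.

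For TNF-α in KD cells, 4 rose and 47 fell scaled to total reads (median -0.47), and the median was -0.0255 with upper-quartile factors and -0.12 with the GC and exon length correction. Falls were 58 above 400000 bases (median -0.25) and 46 at 0.5 FPKM or more. Rises and falls were 1 and 6 above 1000000 bases (median -0.26) and 3 and 5 at 5 FPKM or more.

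For the interaction, the median was -0.40 with a pseudocount of 0.1, -0.52 scaled to total reads (1 higher), -0.13 with upper-quartile factors (14 higher), -0.41 with voom (10 higher) and -0.17 with the GC and exon length correction (3 higher, 17 lower). The GC correction gave 2 higher and 20 lower, and no filter on low reads gave 20 lower. Above 400000 bases 9 and 59 were called, above 1000000 bases 1 and 7 (median -0.46), and at 5 FPKM or more 1 and 6.

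Leaving out 1 library at a time assumes, where a group is left with 1 library, that it varies like the others. Rises in the knockdown without TNF-α were then 28 to 50, falls 7 to 10 and the median 0.18 to 0.49. With TNF-α there were 0 rises, 0 to 1 falls and a median of 0.00 to 0.04. TNF-α in control cells gave 1 to 21 rises, 0 falls and a median of 0.006 to 0.20, and in KD cells 10 to 21 rises, 21 to 38 falls and a median of -0.24 to -0.15. The interaction gave 1 to 7 higher, 18 to 42 lower and a median of -0.45 to -0.13.

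Same-numbered replicates correlated in their deviations at 0.35 between the unstimulated groups and from -0.191 to 0.017 between other groups. The labels give no pairing beyond this number, and whether same-numbered unstimulated libraries were processed together was not tested. With the replicate number as a block, 39 members rose and 9 fell without TNF-α, 0 and 0 with it, 6 and 0 for TNF-α in control cells, 16 and 29 in KD cells, and 4 and 32 in the interaction. With the numbers of the unstimulated control libraries crossed, a pairing chosen after seeing the data, the block gave 2 rises for TNF-α in control cells.

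The reads of nested genes in unstimulated KD over control libraries were 0.904 times on the members' strand and 0.887 times on the opposite strand. Without the 3 genes that held at least 10% of these reads, an alternative chosen after seeing the data, the values were 1.36 and 1.33, and 1.66 and 1.62 when also scaled to total reads.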
